A study of Mus musculus with 4 samples.

Results

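The 8 genes described here encode the MHC class II molecules of the mouse, the proteins that load them with peptide, and the transactivator that drives them. They are H2-Aa, H2-Ab1, H2-Eb1, Cd74, H2-DMa, H2-Oa, H2-Ob and Ciita, taken by gene symbol, and all 8 were among the 18782 genes with a probe set of their own. They were measured in alveolar macrophages, the macrophages of the lung's airspaces, of adult mice on a C57BL/6 background. KO mice carried floxed Pparg alleles together with CD11c-Cre, a recombinase expressed from the promoter of the gene for CD11c. For WT mice the labels give the same floxed Pparg alleles and name no Cre. Pparg encodes PPARγ, a nuclear receptor that senses lipids. There were 2 KO arrays and 2 WT arrays, each of RNA from cells pooled from 2 mice. The sort took live autofluorescent cells with CD45, high CD11c and Siglec-F. It took those with high CD11b from KO lungs and those with low CD11b from WT lungs, so genotype and gate cannot be told apart. The labels describe the KO cells as immature and arrested before the mature alveolar macrophage. CD11c is also carried by dendritic cells, so this Cre is not limited to macrophages.

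Each class II molecule is a pair of an α and a β chain that binds a peptide from the endosome and shows it to CD4+ T cells. H2-Aa and H2-Ab1 encode the pair called I-A, and H2-Eb1 encodes the β chain of I-E. Mice with a C57BL/6 background do not make the I-E α chain and so show I-A alone at the cell surface. The invariant chain, encoded by Cd74, blocks the groove until it is cut in the endosome. H2-DM, of which H2-DMa encodes the α chain, then exchanges the remaining fragment for peptide, and H2-O, made from H2-Oa and H2-Ob, restrains H2-DM. CIITA binds no DNA of its own. It acts on a promoter module of an X box and a Y box that is held by the factors RFX, CREB and NF-Y, and its gene is the main switch for the whole set. Resting alveolar macrophages are known for low class II compared with dendritic cells.

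The promoter module is shown first because 4 of the members were found to hold it. None of these 4 passed the test of KO against WT given below (limma adjusted p from 0.0832 to 0.764). Whether the module relates to the levels was not tested. RefSeq promoters (GRCm38.p6, 250 bases before to 50 bases after a start) were at hand for 5 of the 8 members at 6 starts. H2-Ab1, Cd74 and Ciita had no promoter at hand and were not searched. Both strands were searched for GCAAC, the core of the X box, and GATTGG, the core of the Y box. The pair was counted where the 2 cores lay on 1 strand with their first bases 24 to 34 apart. These letters and distances were chosen after these promoters had been read. GCAAC was held by 35.2% and GATTGG by 16.1% of the 32851 RefSeq promoters, and the spaced pair by 60 of them, or 0.183%. H2-Aa, H2-Eb1, H2-Oa and H2-Ob held the pair once each, and neither of the 2 listed starts of H2-DMa held it. Each line gives the 80 bases from 110 to 31 before the start, in the direction of the gene, with the cores in capitals. They lie at chr17:34287854-34287933 on the minus strand for H2-Aa, and on the plus strand at chr17:34305757-34305836 for H2-Eb1, chr17:34092269-34092348 for H2-Oa and chr17:34238795-34238874 for H2-Ob.
H2-Aa: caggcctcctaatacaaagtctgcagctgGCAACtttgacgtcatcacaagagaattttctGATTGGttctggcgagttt
H2-Eb1: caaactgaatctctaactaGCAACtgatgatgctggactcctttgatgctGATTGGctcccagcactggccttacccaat
H2-Oa: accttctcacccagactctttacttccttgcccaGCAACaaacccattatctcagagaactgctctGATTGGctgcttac
H2-Ob: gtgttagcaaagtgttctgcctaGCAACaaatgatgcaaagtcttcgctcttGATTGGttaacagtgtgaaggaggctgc

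The first bases of the cores were 32 apart in H2-Aa, 31 in H2-Eb1, 32 in H2-Oa and 29 in H2-Ob. The letters TGACG, to which CREB can bind, stood 74 bases before the start of H2-Aa and followed its X core. The related letters TGATG stood 86, 83 and 67 bases before the start of H2-Eb1, 79 bases before that of H2-Ob and 142 bases before a start of H2-DMa on the gene's strand. TGACG was held by 20.8% and TGATG by 39.3% of all promoters on either strand. Among the protein-coding genes of the same RefSeq assembly, H2-Ob, H2-Ab1, H2-Aa and H2-Eb1 are neighbours in this order, and H2-Oa and H2-DMa lie earlier in the same run of genes.

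Part of the class II set was modestly lower in KO macrophages. Cd74 and H2-Ab1 fell to 56.0% and 53.9% of the WT level, H2-Aa stood at 61.2% without passing the test, and H2-Eb1 stood at 110%. The other 4 members did not pass. The fit thus gave 2 of 8 members lower and 0 higher, with 3 at an unadjusted p under 0.05, by limma with p-values adjusted over all genes by the Benjamini-Hochberg method and a threshold of 0.05. Over all genes tested, 14.3% were called, 6.86% lower and 7.41% higher. In bulk RNA, fewer cells of a type and less RNA per cell cannot be told apart. The median difference of the members was -0.27 on the log2 scale, against -0.02 for all genes. That median lay between -0.47 (without WT replicate 2) and -0.15 (without KO replicate 1) when 1 array was left out. Scaling the arrays to 10 housekeeping genes moved the median of all genes by 0.10. Then 1894 genes were higher and 991 lower in place of 1391 higher and 1289 lower, and the members' median was -0.17. Of these 10 genes, Hprt was itself lower in KO, with a difference of -0.77 (limma adjusted p = 0.0141), and the other 9 did not pass. The scaling thus rests in part on a gene that differed between genotypes.

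**Figure D1:**
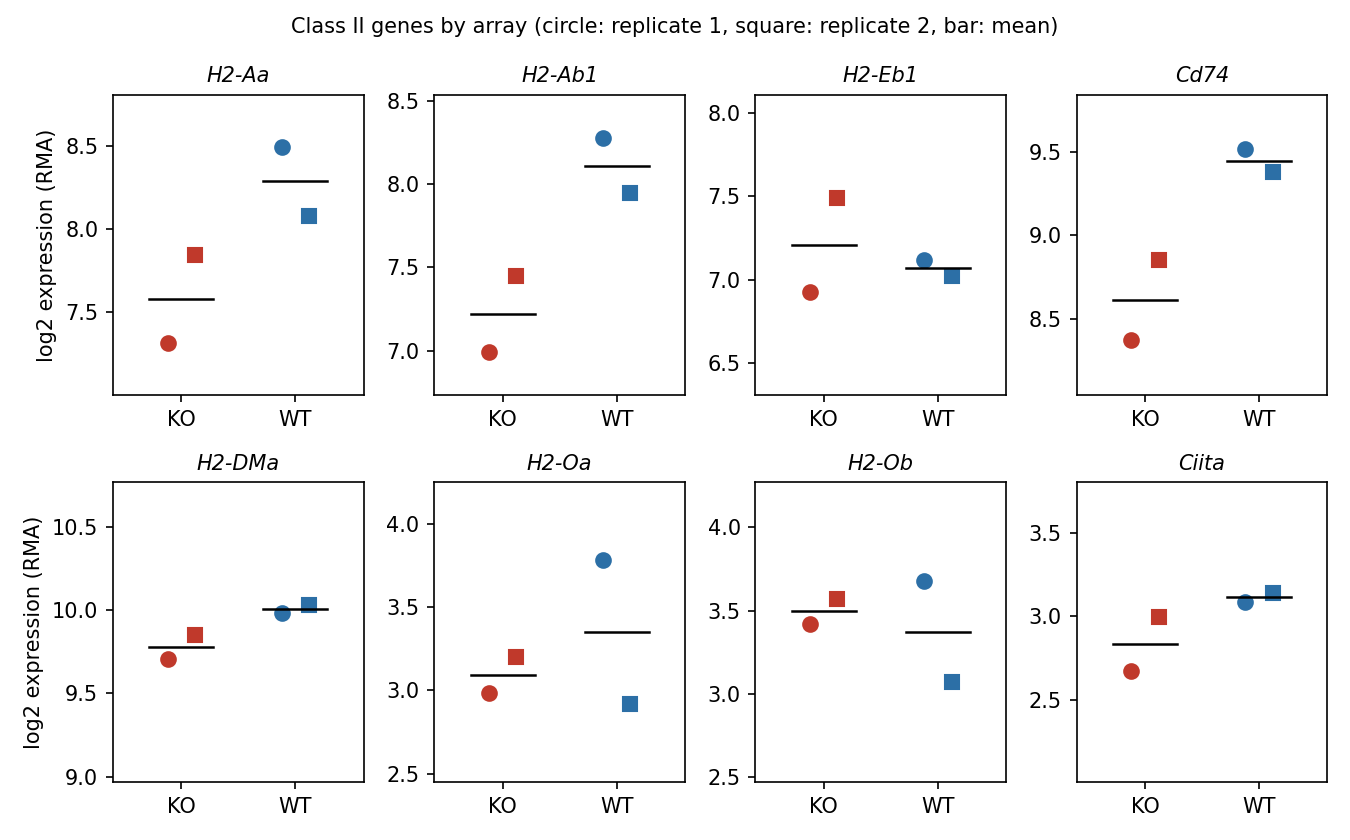
Log2 expression (RMA) of each of the 8 genes on the 2 KO arrays (red, left) and the 2 WT arrays (blue, right), with circles for replicate 1, squares for replicate 2 and a bar at the mean; every vertical axis spans the same range. Both KO arrays lie below both WT arrays for H2-Aa, H2-Ab1, Cd74, H2-DMa and Ciita, and KO replicate 2 lies above KO replicate 1 in all 8 panels.

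H2-Ab1, the β chain of I-A, read 6.99 and 7.45 on the log2 scale on KO arrays 1 and 2, against 8.28 and 7.94 on WT arrays 1 and 2. Both KO arrays lay below both WT arrays, the gap being about as wide as the spread inside a genotype. The difference was -0.89 ± 0.19 (SE; 95% interval -1.34 to -0.44; limma adjusted p = 0.0252). Its partner H2-Aa, the α chain of I-A, read 7.32 and 7.84 in KO, against 8.49 and 8.08 in WT. The order of the arrays was that of H2-Ab1, with a wider spread in both genotypes. The difference of -0.71 ± 0.21 (SE; 95% interval -1.22 to -0.19) did not pass (limma adjusted p = 0.0832), though it did with an intensity trend in the fit (limma adjusted p = 0.0303).

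H2-Eb1, the β chain of I-E, read 6.93 and 7.49 in KO, against 7.12 and 7.02 in WT. The WT arrays lay between the KO arrays. The difference was 0.14 ± 0.19 (SE; limma adjusted p = 0.713), with a 95% interval of -0.32 to 0.59, which leaves out a fall of the size seen in H2-Ab1. It was -0.14 without KO replicate 2. H2-Ea, the gene of the missing I-E α chain and annotated as a pseudogene, read 1.80 and 1.82 in KO, against 1.93 and 1.94 in WT, below the median of 3.14 of every array. It was added after its values were seen.

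Taken within each array, H2-Eb1 minus H2-Ab1 was -0.07 and 0.05 in KO, against -1.16 and -0.92 in WT. That ratio thus separated the genotypes by 1.03 on the log2 scale, with less spread inside each genotype than either gene had in KO. H2-Eb1 minus H2-Aa separated them by 0.85, H2-Eb1 minus Cd74 by 0.98 and H2-Aa minus H2-Ab1 by 0.18. An exact two-sided permutation test over the 4 arrays gave p = 0.333 for each of these 4 relations (0.333 after Benjamini-Hochberg adjustment), the smallest value that 2 arrays against 2 allow. Any full separation of the genotypes gives that value, so the test cannot decide whether 2 genes changed unequally. A ratio of this kind also does not show which gene kept its level.

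Cd74, the invariant chain, read 8.37 and 8.86 in KO, against 9.52 and 9.38 in WT. The KO arrays lay well apart from each other and below both WT arrays, which were close together. The difference was -0.84 ± 0.17 (SE; 95% interval -1.25 to -0.42; limma adjusted p = 0.0239). Which array was kept mattered for both called genes. Cd74 differed by -0.59 (adjusted p = 0.0746) without KO replicate 1 and by -0.77 (adjusted p = 0.0903) without WT replicate 1. H2-Ab1 differed by -0.66 (adjusted p = 0.114) without KO replicate 1 and by -0.72 (adjusted p = 0.0944) without WT replicate 1. Both passed when either replicate 2 array was dropped, and H2-Oa joined them when that array was WT replicate 2. Without either replicate 1 array 0 members passed by limma, with 3 at an unadjusted p under 0.05 in each of these fits. On normal scores of ranks neither Cd74 (limma adjusted p = 0.151) nor H2-Ab1 (0.138) passed.

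H2-DMa, the α chain of the peptide exchanger H2-DM, read 9.71 and 9.85 in KO, against 9.98 and 10.03 in WT. The groups did not overlap, but the difference was small, at -0.23 ± 0.10 (SE; 95% interval -0.48 to 0.02; limma adjusted p = 0.228). It passed with an intensity trend (limma adjusted p = 0.0385). The β chains H2-DMb1 and H2-DMb2 share 1 probe set and cannot be told apart. It read 7.16 and 7.12 in KO, against 7.56 and 7.53 in WT. Fitted with probe sets of several symbols kept, H2-DMb1 and H2-DMb2 differed by -0.40 ± 0.09 (SE; limma adjusted p = 0.0374). In a fit over all probe sets the same probe set did not pass (limma adjusted p = 0.0513).

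The H2-O genes read near the array median and varied between the WT arrays. H2-Oa read 2.98 and 3.20 in KO, against 3.78 and 2.92 in WT, and H2-Ob read 3.42 and 3.57 in KO, against 3.68 and 3.07 in WT. In both genes the KO arrays lay between the WT arrays. H2-Oa differed by -0.26 ± 0.27 (SE; 95% interval -0.91 to 0.40) and H2-Ob by 0.12 ± 0.20 (SE; 95% interval -0.36 to 0.61), with limma adjusted p = 0.626 for H2-Oa and 0.764 for H2-Ob. The WT arrays decided their direction. H2-Oa differed by 0.17 without WT replicate 1 and by -0.69 without WT replicate 2 (adjusted p = 0.0344), and H2-Ob by 0.43 and -0.18.

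Ciita, the transactivator, read 2.67 and 2.997 in KO, against 3.09 and 3.14 in WT. The KO arrays lay below the WT arrays, and only WT replicate 2, at 3.141, exceeded the array median of 3.137. At that level RMA compresses differences, so a larger fall in RNA could read as a small one. The difference was -0.28 ± 0.13 (SE; 95% interval -0.60 to 0.04; limma adjusted p = 0.251). It was -0.12 without KO replicate 1 and -0.44 without KO replicate 2. In all, both KO arrays lay below both WT arrays in 5 of the 8 members, and 30.0% of all genes did so.

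**Figure D2:**
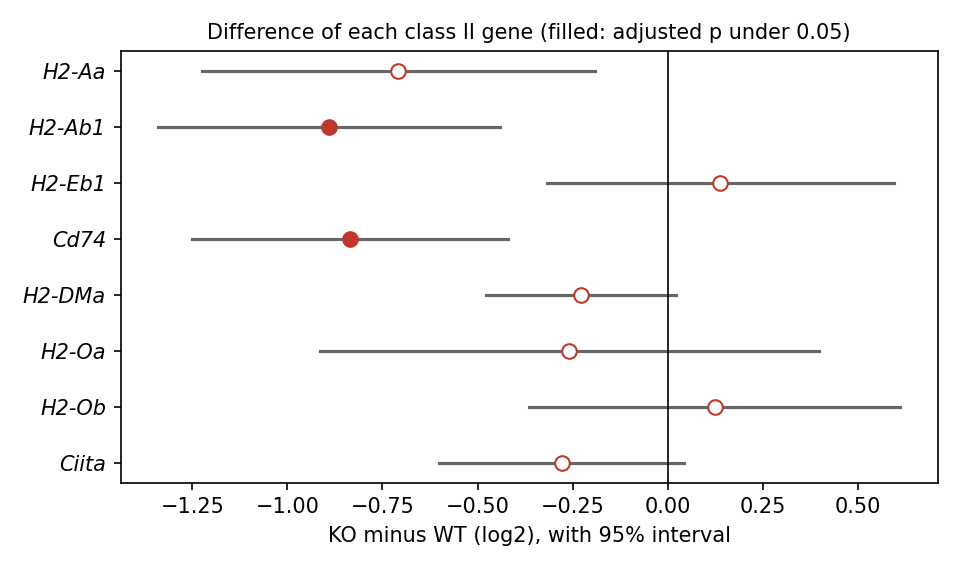
Difference of each gene, KO minus WT on the log2 scale (horizontal axis), with its 95% interval from limma; filled points passed an adjusted p of 0.05. H2-Ab1 (-0.89) and Cd74 (-0.84) are filled, and the intervals of H2-Eb1, H2-DMa, H2-Oa, H2-Ob and Ciita cross 0.

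The members also moved in 1 direction between the KO arrays, and less uniformly between the WT arrays. KO replicate 2 lay above KO replicate 1 in all 8 members, by 0.45 to 0.56 on the log2 scale in Cd74, H2-Aa, H2-Ab1 and H2-Eb1. Across all genes KO replicate 2 was the higher in 50.2%, and the KO arrays differed by a median of 0.12 in either direction. KO replicate 2 was higher by at least 0.4 in 2.41% of genes. WT replicate 1 lay above WT replicate 2 in 6 of the 8 members, by 0.14 in Cd74, 0.41 in H2-Aa, 0.33 in H2-Ab1 and 0.10 in H2-Eb1. It lay below in H2-DMa (-0.05) and Ciita (-0.06). Across all genes WT replicate 1 was the higher in 50.2%, and the WT arrays differed by a median of 0.12 in either direction. The WT gaps of Cd74 and H2-Eb1 were near that median. The gap between the KO arrays was 0.49 in Cd74, against a difference of -0.84 between genotypes, and 0.45 in H2-Ab1, against -0.89. Each array holds a different pool of mice, and which of mouse, sort or hybridisation set these gaps was not tested.

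**Figure D3:**
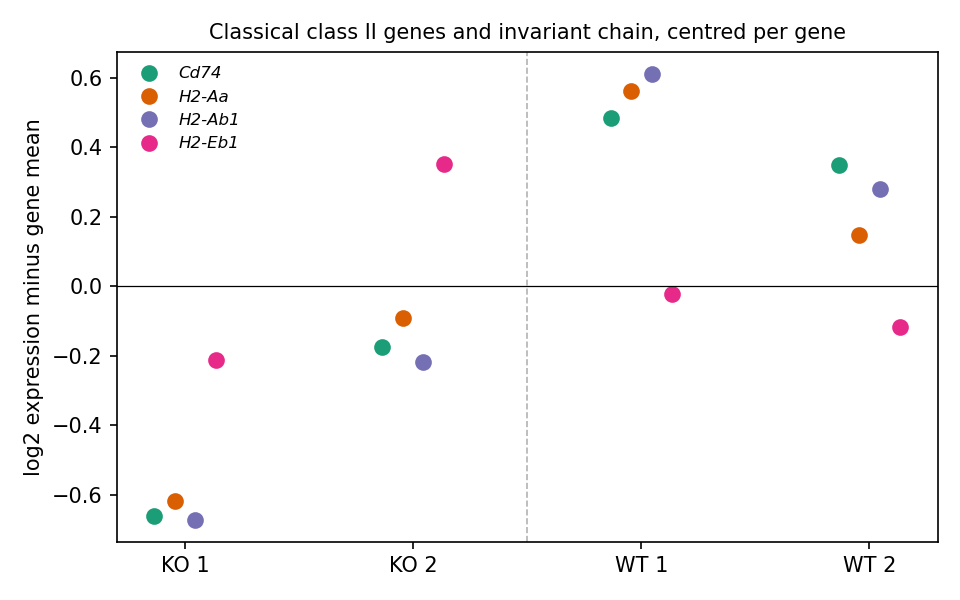
Log2 expression of Cd74, H2-Aa, H2-Ab1 and H2-Eb1 on each array minus the gene's mean over the 4 arrays; the dashed line parts the KO from the WT arrays. All 4 genes are higher on KO replicate 2 than on KO replicate 1, and H2-Eb1 alone of the 4 lies above its mean on a KO array.

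The level of Cd74 and Ciita over the 4 arrays was compared with that of every other gene by the distance between profiles centred on each gene's mean. Predicted genes and small RNA genes were passed over in naming the nearest. Nearest to Cd74 were Ephx3 (distance 0.05 on the log2 scale), Apol8 (0.08), Ovol2 (0.10), Dmxl2 (0.11) and Myo9a (0.12), and 25 genes lay within 0.2. Nearest to Ciita were Stx18 (0.01), Tmem186 (0.02), Zfp110 (0.02), Crnkl1 (0.03) and Fn3krp (0.03), with 913 genes within 0.2. The median distance of all genes was 0.92 from Cd74 and 0.42 from Ciita. This distance depends on how widely a gene varies as well as on its pattern. Ciita varied less over the 4 arrays than Cd74, so the 2 counts cannot be compared. No other member was among the 5 nearest of either gene, which does not mean that every other member lay far from both. From lowest to highest, the arrays stood in the same order in H2-Ab1 and H2-Aa as in Cd74.

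The genes around class II passed the test in both directions. Of 17 measured genes around class II, 5 were higher, 1 was lower and the other 11 did not pass. Most of them cut the invariant chain, hold the promoter module, turn class II over or bind it on T cells. The list also counts H2-Eb2, itself a class II β chain gene. With probe sets of several symbols kept, 6 of 21 were higher and 4 lower. H2-DMb1 and H2-DMb2, which share 1 probe set, are each counted among the lower. The median difference of the 17 was 0.17. Lgmn, an endosomal protease, read 10.05 and 9.92 in KO, against 9.01 and 9.08 in WT, a rise of 0.94 ± 0.10 (SE; limma adjusted p = 0.00229). Ctsl, the gene of cathepsin L, which trims the invariant chain in thymic epithelium, rose by 0.76 ± 0.11 (limma adjusted p = 0.00647). Ctss, the gene of cathepsin S, which does so in dendritic cells and B cells, differed by 0.23 ± 0.09 (limma adjusted p = 0.194). Ifi30, a thiol reductase that unfolds antigen, differed by -0.26 ± 0.10 (limma adjusted p = 0.178). Ctss and Ifi30 were named after their values were seen.

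Genes that act on the class II protein were among those that rose. Marchf1, a ubiquitin ligase that removes class II from the cell surface, read 7.31 and 7.398 in KO, against 6.99 and 6.92 in WT. It was higher by 0.40 ± 0.10 (SE; limma adjusted p = 0.0441). Cd83, which opposes that ligase in dendritic cells, read 9.28 and 9.04 in KO, against 7.91 and 8.21 in WT. It was higher by 1.10 ± 0.14 (SE; limma adjusted p = 0.00473). Cd4, the class II coreceptor of T cells, was higher by 0.42 ± 0.10 (limma adjusted p = 0.0386) at a level of 3.08 and 3.18 in KO, against 2.73 and 2.69 in WT, near or under the array median.

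Of the factors on the promoter module, Rfx5 read 4.35 and 4.38 in KO, against 4.73 and 4.75 in WT, and was lower, with a difference of -0.38 ± 0.09 (SE; limma adjusted p = 0.0475). Rfxap differed by 0.38 ± 0.14 and Nfyc by -0.39 ± 0.11, and neither passed (limma adjusted p = 0.139 for Rfxap and 0.0684 for Nfyc). Nfyc passed as lower with dim genes left out (0.0456), with an intensity trend (0.0168) and with its probe sets averaged (0.0431), and Rfxap differed by 0.21 without KO replicate 1. Nfya, Nfyb and Creb1 differed by 0.11 to 0.16 with limma adjusted p between 0.426 and 0.582. Rfxap, Nfyc, Nfya, Nfyb and Creb1 were named after their values were seen, to complete the factors. Rfxank lay on a probe set with several symbols, and with such probe sets kept it differed by -0.53 ± 0.13 (SE; limma adjusted p = 0.0447). The calls of Cd4, Marchf1 and Rfx5 were lost whichever array was left out, with adjusted p of 0.104 to 0.175 for Cd4, 0.110 to 0.189 for Marchf1 and 0.144 to 0.180 for Rfx5. Rfx5 also did not pass with arrays scaled to housekeeping genes (0.126) or with an intensity trend (0.104), nor did Cd4 with the trend (0.0723). Leaving out KO replicate 1 took Ctsl to an adjusted p of 0.0528. The pathway then counted 2 genes in that fit and 3 when any other array was dropped, all of them higher.

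Among 26 measured genes that govern Ciita, 5 were higher, 2 were lower and the other 19 did not pass, with a median of 0.07. Both chains of the interferon γ receptor, the signal that induces Ciita in macrophages, were higher. Ifngr2 read 9.64 and 9.60 in KO, against 8.54 and 8.84 in WT, a difference of 0.94 ± 0.13 (SE; limma adjusted p = 0.00522). Ifngr1 differed by 0.64 ± 0.13 (SE; limma adjusted p = 0.0213). Socs1, a brake on that signal, was higher by 0.48 ± 0.12 (limma adjusted p = 0.0465). Ifng itself read 2.13 and 2.26 in KO, against 2.35 and 1.87 in WT. Irf1, which acts at the interferon-responsive Ciita promoter, differed by 0.43 ± 0.13 (limma adjusted p = 0.0866). Socs1, Ifng and Irf1 were named after their values were seen.

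Irf4, a transcription factor of the interferon regulatory family, showed the widest difference among these genes. It read 6.75 and 6.56 in KO, against 3.40 and 4.11 in WT, and was higher by 2.90 ± 0.23 (SE; limma adjusted p = 7.08e-04). Il10rb, a chain of the receptor for IL-10, was higher by 0.94 ± 0.13 (limma adjusted p = 0.00579). Il10ra, another chain of it, differed by 0.19 ± 0.10 without passing (limma adjusted p = 0.289) and was named after its value was seen. Spi1, which encodes PU.1, read 9.36 and 9.43 in KO, against 9.94 and 9.87 in WT, and was lower, with a difference of -0.51 ± 0.10 (SE; limma adjusted p = 0.0194). Prdm1, whose product Blimp-1 silences Ciita in plasma cells, was lower, with a difference of -0.52 ± 0.11 (SE; limma adjusted p = 0.0261). When 1 array was left out, the adjusted p lay between 0.0564 and 0.210 for Socs1, which passed in no such fit. Spi1 passed without WT replicate 2 alone (0.0757 to 0.108 in the other fits), Ifngr1 without WT replicate 2 alone (0.0759 to 0.110) and Prdm1 without WT replicate 1 alone (0.0996 to 0.126). Prdm1 did not pass with arrays scaled to housekeeping genes (0.0606), where Irf1 did (0.0345), and Socs1 did not with an intensity trend (0.0720). When KO replicate 1 was dropped 3 of these genes passed, and 4 passed when KO replicate 2 or WT replicate 1 was dropped.

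Some MHC class I genes sit in the same gene cluster as class II. Of 24 measured genes of class I and its loading pathway, 6 were higher, 1 was lower and the other 17 did not pass, with a median of 0.02. Nlrc5, the transactivator of class I and a relative of CIITA, read 6.20 and 5.96 in KO, against 4.98 and 4.97 in WT. It was higher by 1.10 ± 0.12 (SE; limma adjusted p = 0.00195). It has 19 probe sets, all 19 of which were higher in KO by 0.20 to 1.29, 13 of them past the test in a fit over all probe sets. Whether Nlrc5 and Ciita differed in their response was not tested.

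The main class I chains did not pass the test. H2-K1 differed by 0.11 ± 0.10 and B2m, the light chain, by 0.03 ± 0.09, with limma adjusted p = 0.550 for H2-K1 and 0.888 for B2m. The class Ib genes H2-M3 (0.72 ± 0.12), Mr1 (0.62 ± 0.11), H2-T24 (0.59 ± 0.10) and H2-T23 (0.43 ± 0.10), and H2-Q6 (0.44 ± 0.11), were higher, with limma adjusted p from 0.0102 to 0.0421. Genes of the H2-Q and H2-T groups have near-identical copies, so a probe set of 1 can read another. With probe sets of several symbols kept, H2-Q6 differed by 0.06 (limma adjusted p = 0.774). Tap2, a chain of the peptide transporter, was lower, with a difference of -0.50 ± 0.10 (SE; limma adjusted p = 0.0239), while its partner Tap1 differed by -0.01 ± 0.14 (limma adjusted p = 0.979). H2-Q6, H2-K1, B2m and Tap1 were named after their values were seen.

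Apart from Nlrc5, each class I call was lost in at least 1 fit with an array left out. Nlrc5 passed whichever array was left out. Tap2 (adjusted p 0.0666 to 0.127), H2-T23 (0.0923 to 0.168) and H2-Q6 (0.0726 to 0.187) passed in no fit with 1 array left out. H2-T24 was lost without KO replicate 1 (0.0566) and without KO replicate 2 (0.0676), H2-M3 likewise (0.0694 and 0.0706), and Mr1 without KO replicate 2 (0.0820) and without WT replicate 1 (0.0620). The number of class I genes past the test was 2 when KO replicate 1 was dropped, 1 for KO replicate 2, 3 for WT replicate 1 and 4 for WT replicate 2.

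**Figure D4:**
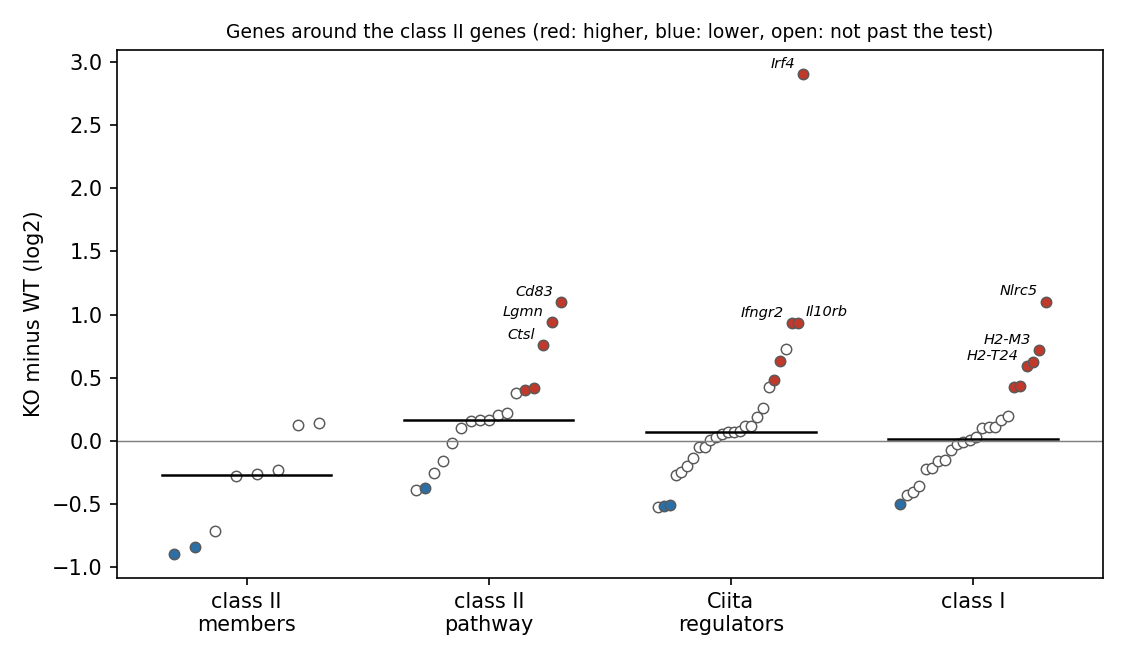
Difference of each measured gene, KO minus WT on the log2 scale (vertical axis), in the 8 class II members and in the lists of the class II pathway (17 genes), of genes that govern Ciita (26) and of class I (24); red points were higher, blue points lower and open points not past an adjusted p of 0.05, and bars mark medians. The members' median is -0.27, against 0.17, 0.07 and 0.02 in the other lists, and the 3 genes with the smallest p of each of those lists are labelled.

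Dendritic cells and B cells carry far more class II than alveolar macrophages, so their markers were read on the same arrays. Of 18 dendritic cell markers 4 were higher, 1 was lower and the other 13 did not pass. Their level summed on the linear scale was 1627 and 1758 in KO, against 685 and 886 in WT. Cd24a made up most of it, and the sum without Cd24a was 303 and 378 in KO, against 171 and 186 in WT. The list's median log2 level overlapped between genotypes, at 2.86 and 3.05 in KO, against 2.94 and 2.79 in WT. The genes with the smallest p were Irf4, Cd209a (2.04 ± 0.19) and Cd24a (1.17 ± 0.16). Irf4 is also counted among the genes that govern Ciita, and it is part of the sum without Cd24a. Flt3 read 2.48 and 2.88 in KO, against 3.15 and 2.67 in WT, Zbtb46 2.88 and 3.12 in KO, against 2.99 and 2.88 in WT, and Ccr7 5.15 and 5.29 in KO, against 5.18 and 4.85 in WT. These 3 first-listed markers overlapped between genotypes, with Flt3 and Zbtb46 near or under the array median. Dropping KO replicate 1 or WT replicate 1 left 3 dendritic cell markers past the test.

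Of 18 B cell markers 2 were higher and the other 16 did not pass, with sums of 591 and 637 in KO, against 453 and 438 in WT. Without Cd22, the brightest, they were 235 and 237 in KO, against 133 and 116 in WT. The median log2 level of these markers overlapped between genotypes, at 2.76 and 2.89 in KO, against 2.86 and 2.66 in WT. The 2 past the test were Blnk, an adaptor of B cell receptor signalling (3.93 ± 0.10; limma adjusted p = 1.70e-05), and Bank1 (1.23 ± 0.11; limma adjusted p = 0.00100). Blnk read 6.79 and 6.84 in KO, against 2.83 and 2.94 in WT, and is part of the sums with and without Cd22. The higher sums in KO therefore do not show a rise of the other B cell markers. The receptor chains Cd79a and Cd79b read 3.20 to 3.49 in KO, against 3.09 to 3.54 in WT, and Ms4a1 2.80 and 2.70 in KO, against 3.06 and 2.91 in WT. Cd79a and Cd79b overlapped between genotypes, and Ms4a1 lay lower in KO without passing the test. Markers of interstitial macrophages were higher in 11 and lower in 1 of 16 genes, with sums of 5430 to 5600 in KO, against 1925 to 1993 in WT. The brightest of them, Mrc1, stood at 1121 and 1144 in KO, against 1552 and 1520 in WT on the linear scale. Without Mrc1, which is also on the alveolar macrophage list, the sums were 4479 and 4285 in KO, against 441 and 405 in WT. The smallest p were those of C1qc (4.84 ± 0.13), Pla2g2d (5.23 ± 0.15) and C1qa (3.77 ± 0.12), and the widest difference was that of C1qb (6.48), named after its value was seen. Among 12 monocyte markers 5 passed as higher and 2 as lower, with sums of 3069 to 3082 in KO, against 2782 to 2898 in WT. Cx3cr1, which is also on the interstitial macrophage list, differed by 2.91, Cd300e by -2.6 and Treml4 by -2.39. The part of these other cells or states in the class II levels was not tested.

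Of 18 alveolar macrophage markers 2 were higher in KO, 8 were lower and the other 8 did not pass, with sums of 13715 and 13880 in KO, against 19407 and 17585 in WT. Cidec differed by -5.67 (limma adjusted p = 8.27e-06) and Perp by -2.59 (limma adjusted p = 1.01e-04). Siglecf, a gate gene, read 6.01 and 6.48 in KO, against 9.59 and 9.44 in WT, Marco read 3.04 and 3.37 in KO, against 7.22 and 4.43 in WT, while Car4 read 10.15 on both KO arrays, against 10.43 and 10.50 in WT. Itgam, the gene of CD11b, differed by 5.76 ± 0.14 and Itgax, the gene of CD11c, by 0.24 ± 0.09, as measured by limma (adjusted p = 1.25e-05 for Itgam and 0.168 for Itgax). Pparg differed by -0.06 ± 0.10 (SE; limma adjusted p = 0.790). The position of its probes against the floxed exons is unknown, and the value therefore checks no genotype. T cell and natural killer cell markers summed to 665 to 671 in KO, against 810 to 827 in WT, nearly all of it Cd2. Without Cd2 the sums were 64.7 and 67.9 in KO, against 61 and 63.5 in WT. Markers of eosinophils and neutrophils summed to 188 to 195 in KO, against 220 to 263 in WT, and without the brightest, Csf3r, to 130 to 143 in KO, against 72.8 to 85.0 in WT. Those of epithelium and stroma summed to 304 to 315 in KO, against 243 to 352 in WT. Of these last 3 lists, 1 of 13, 2 of 13 and 1 of 11 genes passed the test. The T cell and natural killer cell marker that passed was Cd4, which is also counted among the genes around class II.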

How the data were processed

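The deposited table holds log2 expression values per probe set of Affymetrix arrays, as the authors gave them. The submitters' processing notes name RMA and R 2.15.2, with genome build and RMA settings not given in the sources used here. The 4 columns share 1 distribution (0.96 to 12.11, median 3.14), so a change of most transcripts in 1 direction would not show, and low values are compressed. Precision is limited by the 4 arrays, and p-values measure only the spread between these pools of mice. Probe sets were named from the platform annotation. The 21158 with 1 symbol gave 18782 genes, 1 probe set each by the highest mean over the 4 arrays, and each member had a single one. The test of KO against WT used limma 3.58.1 under R 4.3.3 (group as the only term, 2 residual and 4.16 prior degrees of freedom, two-sided, Benjamini-Hochberg over all genes). The procedure was run on simulated data with variances drawn from limma's own fit. The simulated differences were all larger than those of the members, so this run does not cover differences of their size. Arrays correlated with r = 0.996 (KO), 0.995 (WT) and 0.967 to 0.975 between genotypes. Members and lists were chosen with earlier results of these data known. Named were the members, up to 6 genes with the smallest p of each list around class II, and the 5 genes nearest Ciita and Cd74. Of the marker lists, up to 3 with the smallest p, the first listed and the brightest were named in part. Pparg and gate genes were named too, with others marked as added. Levels are log2 values, errors SE of the difference.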

Additional observations from a re-analysis of the deposited data

How the results depend on the processing

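Alternatives left out each array, added a replicate block, repeated quantile normalization, scaled arrays to housekeeping genes, left out dim genes, added an intensity trend, averaged probe sets, kept probe sets with several symbols, or used normal scores of ranks. With 1 array left out, members past the test numbered 0 to 3 (2 with all arrays), all genes 1382 to 2284 (2680), the class II pathway 2 to 3 (6), class I 1 to 4 (7), regulators of Ciita 3 to 5 (7), dendritic cell markers 3 to 5 (5). The ranges were -1.08 to -0.59 for Cd74, -1.12 to -0.66 for H2-Ab1, -0.97 to -0.45 for H2-Aa, -0.14 to 0.42 for H2-Eb1, -0.69 to 0.17 for H2-Oa and -0.18 to 0.43 for H2-Ob. The replicate block, with same-numbered arrays as pairs, left 3 genes past the test in the class II pathway, 2 members (Cd74 -0.84 with adjusted p = 0.0319, H2-Ab1 -0.89 with adjusted p = 0.0430) and 2477 genes in all. The labels do not say that numbers pair the arrays, and the deviations of same-numbered arrays from their group means correlated at r = -0.02 over genes. With an intensity trend 4 members passed, H2-Aa (-0.71, adjusted p = 0.0303) and H2-DMa (-0.23, adjusted p = 0.0385) among them. With several-symbol probe sets kept, 10 pathway genes passed of 21, 6 higher and 4 lower, with H2-DMb1 and H2-DMb2 counted separately though they share 1 probe set. With dim genes left out Ciita was not tested and 1 B cell marker passed of 6. On normal scores, whose unit differs, limma called 0 members (2 at an unadjusted p under 0.05), 551 genes, 1 pathway gene, 0 class I genes (8 at an unadjusted p under 0.05), 1 regulator and 1 dendritic cell marker, with Cd74 at -0.37 (adjusted p = 0.151) and H2-Ab1 at -0.39 (adjusted p = 0.138). The cause of these shifts was not tested, beyond the smaller number of arrays or genes. Fits that leave out an array hold 1 array of a genotype, assumed to vary like the other. With 2 arrays a genotype, members whose intervals cross 0 were not resolved.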
